A study of Rattus norvegicus with 36 samples.

Results

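*Brca1*, *Bard1*, *Brca2*, *Palb2*, *Fancd2*, *Fanci*, *Blm*, *Exo1* and *Xrcc2* are 9 genes of homologous recombination and of the Fanconi anaemia pathway. They were taken by gene name from the 24275 genes in the count tables, and all 9 were found. Their RNA was measured in H9C2, a myoblast cell line from embryonic rat heart, after transfection with 25 nmol/L of a mimic control (MC), of a miR-125b mimic or of a mimic of 1 of 4 miR-125b isomiRs, named Trim AGU, Trim AG, Trim A and Plus A. The sample titles number the trimmed mimics, and they were matched to these names by how many bases each lacks. Transfected cells were then held in normoxia with fresh normal medium, or in hypoxia with serum-free low-glucose medium, so lack of oxygen, of serum and of glucose cannot be told apart. Each of the 12 groups of mimic and oxygen had 3 libraries, and 33 libraries of 11 groups had counts. Normoxia MC was given only as the authors' group means, so no test used it. Every group with counts in normoxia had therefore received miR-125b or an isomiR, and untransfected cells were not analysed here. All groups come from a single cell line, and no source used here says that replicates were separate cultures. The p-values then measure the spread between these libraries, which may be technical.

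Homologous recombination repairs a broken DNA end by copying the intact sister chromatid, which exists only after the DNA has been replicated. The broken end is cut back to a single strand, and BRCA1 with its partner BARD1 and the bridging protein PALB2 bring in BRCA2, which prepares that strand for the search for the matching sequence. The Fanconi anaemia pathway feeds cross-linked DNA into the same repair, and in many dividing cells the genes of both are transcribed more from late G1 into S phase than in resting cells.

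The mimics are shown first, since they differ by 1 to 3 bases at the 3′ end and the comparisons are between them. The mature sequence is that of rno-miR-125b-5p in RefSeq, from the *Mir125b2* locus on the plus strand at chr11:29732588-29732609 in GRCr8. The isomiRs were built from it by the bases in their names, and capitals mark the seed, bases 2 to 8, which is the same in all 5 molecules.
miR-125b: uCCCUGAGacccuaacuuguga
Plus A: uCCCUGAGacccuaacuugugaa
Trim A: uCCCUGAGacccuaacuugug
Trim AG: uCCCUGAGacccuaacuugu
Trim AGU: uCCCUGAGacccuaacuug
Their lengths are 22, 23, 21, 20 and 19 bases.

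The 33 libraries held 28361216 to 42672584 counts each (median 29923694), and the lowest count of any of the 9 genes in any library was 27, for *Exo1* in Hypoxia Plus A replicate 1. The deepest libraries were those of Hypoxia Trim AG, with 41306881, 39940087 and 42672584 counts, and every other library held at most 34505938. Depth and mimic cannot be told apart in comparisons with this group. Of the myoblast markers, *Cdh15* was at 190 to 599 CPM (counts per 1000000 counts of the library). *Myod1* was at 17.1 to 146 CPM and *Myog* at 10.4 to 359 CPM. *Des* (0.855 to 4.98 CPM), *Pax7* (0 to 0.549 CPM) and *Myf5* (0 to 0.0703 CPM) were low. The cardiomyocyte markers *Myh6*, *Nkx2-5*, *Nppa* and *Ryr2* were at most at 0.987 CPM. *Tnni3* was at 0.855 to 3.43 CPM, *Gata4* at 8.72 to 16.4 CPM and *Tnnt2* at 9.22 to 316 CPM. Of the fibroblast markers, *Col1a1* was at 5403 to 27700 CPM and *Col3a1* at 2501 to 14170 CPM. *Thy1* was at 79.8 to 261 CPM, *Dcn* at 0.797 to 44.2 CPM and *Pdgfra* at most at 0.846 CPM. *Ptprc*, which marks leukocytes, stayed at or below 0.188 CPM. A pair of libraries went against its labels in the level of *Cav1*, and whether they were exchanged was not tested. *Cav1*, the caveolin gene, was at 268.9, 98.0 and 98.3 CPM in the 3 libraries labelled Normoxia Plus A and at 102, 282 and 263 CPM in those labelled Normoxia miR-125b, against 93.9 to 100.2 CPM in Hypoxia Plus A and 241 to 246 CPM in Hypoxia miR-125b. Replicate 1 of each of these normoxia groups thus carried the *Cav1* level of the other group. The labels were kept, and these libraries were also left out together. Without them the median log2 fold change of the 9 genes in hypoxia moved from -1.49 to -1.39 with Plus A, and no gene moved by more than 0.28, while with miR-125b none moved by more than 0.17. Against miR-125b in normoxia the median moved from 1.13 to 1.04 with Trim AG and from 1.03 to 0.94 with Trim AGU. Sums, correlations and levels given below include both libraries. Hypoxia Trim AGU replicate 2 also stood apart, with 16981 genes detected against 18342 to 19451 in the other 32 libraries.

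By role, *Brca1* (chr10:89394803-89454681, minus strand) and *Bard1* (chr9:78294834-78369031, minus) encode the partners of a ubiquitin ligase, *Palb2* (chr1:192064589-192088520, minus) the bridge to *Brca2* (chr12:504007-544748, plus), and *Xrcc2* (chr4:5841998-5860527, plus) a protein that acts on the single strand during the same repair. *Exo1* (chr13:93939022-93960342, plus) encodes a nuclease that cuts back DNA ends and *Blm* (chr1:142246790-142332588, minus) a helicase that acts in the same step and separates joined DNA molecules. *Fancd2* (chr4:145489869-145551479, plus) and *Fanci* (chr1:141120166-141172483, plus) encode the pair that is ubiquitinated at cross-links. These coordinates are those of the tables, for which no genome build is given in the sources used here. On the per-length scale (FPKM, fragments scaled by gene length and library total), *Fanci* had the highest median level in the 15 normoxia libraries, 11.1, followed by *Fancd2* with 8.71, and *Brca2* had the lowest, 2.38. In the 18 hypoxia libraries *Fanci* was again the highest with a median of 3.28 FPKM and *Brca2* again the lowest with 0.971 FPKM, but *Xrcc2*, seventh of 9 in normoxia with 3.85 FPKM, ranked second with 2.06 FPKM.

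**Figure D1:**
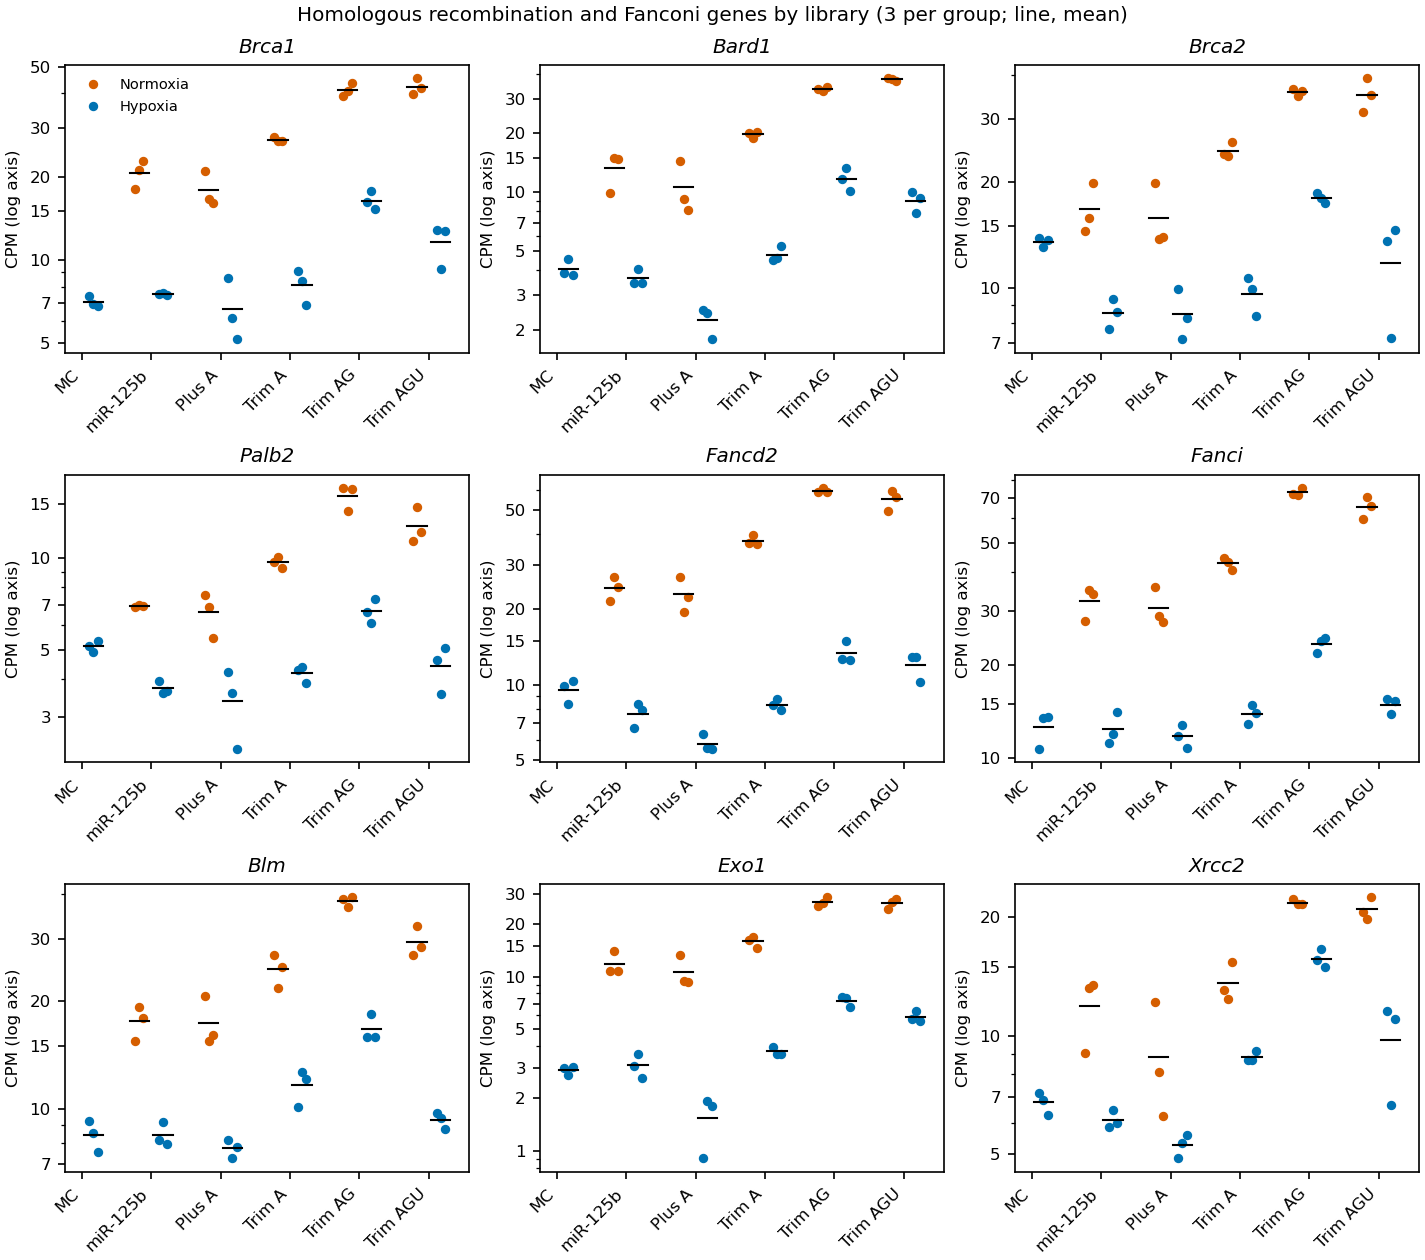
Level of each of the 9 genes in CPM (log axis) by mimic, with 1 point per library, normoxia in orange, hypoxia in blue and a line at the mean of 3 libraries. Every gene has its lowest mean in Hypoxia Plus A and its highest in Normoxia Trim AG or Normoxia Trim AGU, and the hypoxia points of each mimic lie below its normoxia points.

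Across the 11 groups the ends of the order were shared. Hypoxia Plus A had the lowest mean of all 9 genes, and the highest mean was in Normoxia Trim AG for 7 genes and in Normoxia Trim AGU for *Brca1* and *Bard1*. Libraries of the lowest group overlapped those of the next lowest for *Brca1*, *Brca2*, *Palb2*, *Fanci* and *Blm*. Those of the highest group overlapped the next highest for every gene but *Bard1*, *Fanci* and *Blm*. The summed level of the 9 genes was 49.1 to 57.3 CPM in Hypoxia Plus A, 57.7 to 64.2 CPM in Hypoxia miR-125b, 69.5 to 70.4 CPM in Hypoxia MC and 71.3 to 75.9 CPM in Hypoxia Trim A. It was 77.2 to 96.5 CPM in Hypoxia Trim AGU and 125 to 137 CPM in Hypoxia Trim AG. In normoxia it was 125 to 172 CPM with Plus A, 134 to 168 CPM with miR-125b, 213 to 219 CPM with Trim A, 302 to 346 CPM with Trim AGU and 340 to 354 CPM with Trim AG. The ranges of neighbouring groups overlapped between Plus A and miR-125b in normoxia, and between both of these and Hypoxia Trim AG. Trim AG and Trim AGU overlapped in normoxia and not in hypoxia.

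The first question was how hypoxia changed these genes under each mimic. With Trim AG 8 of 9 genes fell in hypoxia, and under each of the other mimics all 9 fell. A call, here and below, needs an adjusted p under 0.05 together with a change of 1.5-fold or more. Of all genes tested, 17.8% were called lower under Trim AG, 14.5% under Trim A, 13.4% under Trim AGU, 12.8% under Plus A and 11.5% under miR-125b. The median log2 fold change of the 9 genes was -1.33, -1.70, -1.83, -1.49 and -1.46 for these mimics in turn, against medians of all genes of 0.00935, 0.0199, 0.00374, 0.0129 and 0.0142. The resection nuclease *Exo1* and the Fanconi gene *Fancd2* were among the 3 largest falls under every mimic, joined by *Bard1* under miR-125b, Plus A or Trim A and by *Fanci* under Trim AG or Trim AGU. *Xrcc2* had the smallest change under every mimic but miR-125b, where *Palb2* did (-0.98 against -1.04).

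*Exo1* was at 10.8, 14.02 and 10.8 CPM in Normoxia miR-125b and at 3.06, 3.61 and 2.62 CPM in Hypoxia miR-125b. With Plus A it was at 13.3, 9.499 and 9.27 CPM in normoxia and at 0.902, 1.92 and 1.81 CPM in hypoxia, and 0.902 CPM was the lowest level of any of the 9 genes in any library. *Exo1* thus fell in hypoxia by 2.02 ± 0.17 (SE) on the log2 scale with miR-125b (adjusted p = 1.1e-05) and by 2.89 ± 0.26 with Plus A (adjusted p = 1.74e-05). *Fancd2* was at 58.7, 61.1 and 59.0 CPM in Normoxia Trim AG and at 12.6, 14.97 and 12.5 CPM in Hypoxia Trim AG. Its levels in the 2 conditions lay far apart, and it fell 4.43-fold there (log2 fold change -2.15 ± 0.10, adjusted p = 8.89e-07). *Xrcc2* was at 22.3, 21.6 and 21.6 CPM in Normoxia Trim AG and at 15.5, 16.6 and 14.95 CPM in Hypoxia Trim AG. Its libraries did not overlap either, but the difference was 1.38-fold (log2 fold change -0.47 ± 0.09, adjusted p = 0.00179), under the fold threshold. Under Plus A, *Xrcc2* fell by 0.85 ± 0.21 on the log2 scale (adjusted p = 0.00848), and without Normoxia Plus A replicate 1 its log2 fold change was -0.58 (adjusted p = 0.0156), short of the threshold, which left 8 of 9 genes called. Hypoxia Plus A against Normoxia Plus A was the only oxygen comparison in which leaving out a library changed the count.

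Within each mimic, the 3 hypoxia libraries lay below the 3 normoxia libraries for all 9 genes, as they did for 31.6% of genes tested under Trim AG, 27.5% under Trim AGU, 24.5% under miR-125b, 24.1% under Trim A and 22.8% under Plus A. Over all mimics together, only *Fancd2*, *Fanci* and *Exo1* had all 18 hypoxia libraries below all 15 normoxia libraries, which 4.5% of 13162 genes did. For the other 6, hypoxia libraries of 1 mimic reached normoxia libraries of another. *Brca1* reached 17.7 CPM in Hypoxia Trim AG against a lowest normoxia value of 16.1 CPM in Normoxia Plus A, and *Xrcc2* reached 16.6 CPM against 6.25 CPM in the same groups. In bulk RNA, fewer cells in the part of the cell cycle that uses a gene and less of its RNA per cell cannot be told apart.

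**Figure D2:**
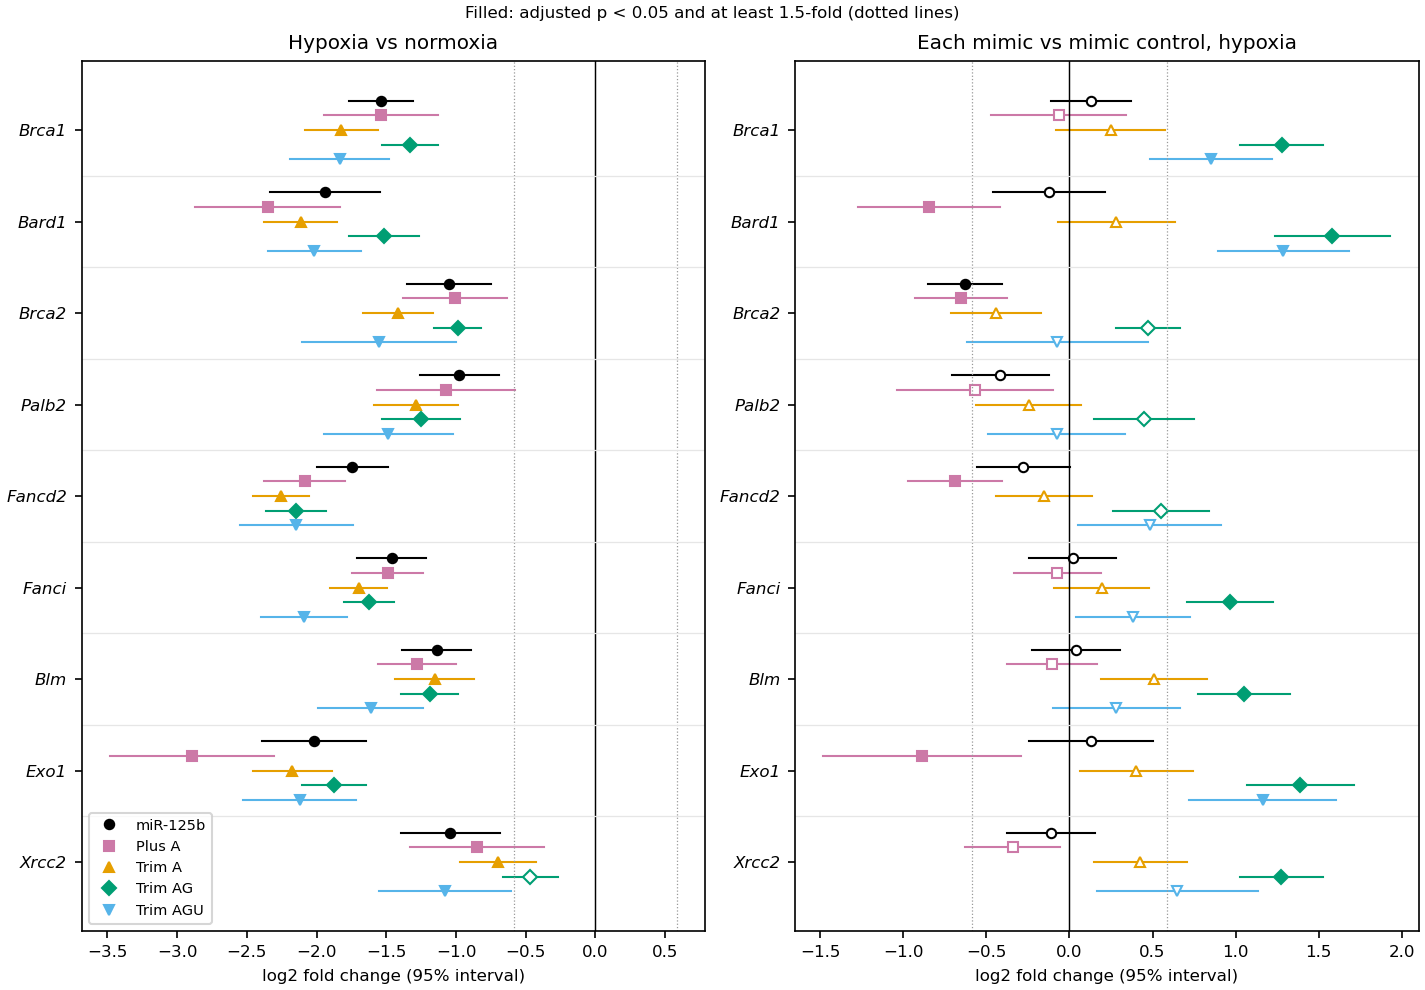
Log2 fold change of each gene with its 95% interval, for hypoxia vs. normoxia under each mimic (left) and for each mimic vs. MC in hypoxia (right); filled points passed an adjusted p of 0.05 and a 1.5-fold change (dotted lines). On the left all points lie below 0 and 1 of 45, *Xrcc2* with Trim AG, is open; on the right the Plus A points lie to the left and the Trim AG points to the right of 0.

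The rest of the pathway fell in part. Of 50 other homologous recombination and Fanconi genes, 22 fell in hypoxia under Trim AGU, 21 under Trim AG, 19 under Plus A, 18 under Trim A and 18 under miR-125b, while 3, 2, 0, 3 and 0 rose. The median log2 fold change of the 50 ranged from -0.46 with Trim AGU to -0.21 with Plus A. *Brip1*, the helicase partner of BRCA1, fell by 1.32 with miR-125b to 2.06 with Plus A (adjusted p = 0.00129 or lower). Among those with a mean of at least 1 CPM, the largest fall under each mimic was in *Gen1*, which encodes a resolvase of joined DNA molecules (log2 fold change -2.13 with miR-125b), *Ube2t*, the E2 enzyme of the Fanconi pathway (-2.39 with Plus A), *Rad54l*, a motor protein of homologous recombination (-2.45 with Trim A), and *Rmi2*, a subunit of the BLM complex (-2.39 with Trim AG and -3.25 with Trim AGU). Among the few that rose were *Sfr1* and *Swsap1*, both of accessory factors of homologous recombination, with log2 fold changes of 0.75 and 0.68 under Trim A and 0.71 and 0.88 under Trim AG.

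Genes of DNA replication and of mitosis moved with the 9 genes. Of 39 replication genes, 34 (Trim AGU) to 38 (Plus A) fell in hypoxia and 0 rose, with medians of -1.17 with miR-125b to -1.73 with Trim AGU, and of 27 genes of G2 and mitosis 26 (Trim AGU) or 27 fell, with medians of -1.43 with Trim AG to -2.25 with Plus A. Examples were *Rrm2*, a subunit of ribonucleotide reductase (-3.03 with Plus A), and *Plk1*, a mitotic kinase (-2.71 with Plus A). Of the 4 myoblast markers with enough counts, 2 to 4 fell under each mimic, and 1 rose with miR-125b and 1 with Plus A. Of the fibroblast markers, 1 to 3 fell and 1 rose under each mimic. The part of cell cycle position or of either marker list in the change of the 9 genes was not tested. Of 13 genes of end joining, the repair that needs no sister chromatid, 1 or 2 fell and 1 or 2 rose under each mimic, and their medians lay between -0.27 (Trim AG) and -0.01 (Plus A). *Nhej1*, an end joining scaffold, rose under every mimic, by 1.35 with miR-125b to 2.19 with Trim AGU on the log2 scale, and *Xrcc5*, which encodes the larger Ku subunit, was among the genes that fell with miR-125b (-0.64), Plus A (-0.64), Trim A (-0.79) and Trim AG (-0.63) and not with Trim AGU (-0.54, adjusted p = 0.0534). Of 13 hypoxia target genes tested, 8 to 12 rose and 0 fell.

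The next question was what each mimic did against MC in hypoxia, the only condition in which MC had counts. These 5 comparisons share the 3 MC libraries. *Brca2* was the only gene of the 9 called with miR-125b, where 12.5% of all genes tested were called lower. It was at 13.9, 13.1 and 13.7 CPM with MC and at 7.67, 9.36 and 8.59 CPM with miR-125b. The libraries did not overlap, as for 35.5% of genes tested in this direction. *Brca2* fell 1.55-fold (log2 fold change -0.63 ± 0.10, adjusted p = 0.000243), but without Hypoxia miR-125b replicate 1 the log2 fold change was -0.56 (adjusted p = 0.00113) and the fold threshold was not met, which left 0 of 9 called. *Palb2*, whose protein carries BRCA2 to breaks, had a log2 fold change of -0.42 ± 0.13 (adjusted p = 0.0194), 1.33-fold. For *Fanci* and *Blm* the intervals of the log2 difference were -0.24 to 0.28 and -0.23 to 0.30, so a change of 1.5-fold lay outside them.

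With Plus A, 4 of 9 genes fell against MC, where 14.4% of all genes tested were called lower. *Bard1* was at 3.87, 4.57 and 3.81 CPM with MC and at 2.51, 2.43 and 1.78 CPM with Plus A, a log2 fold change of -0.84 ± 0.19 (adjusted p = 0.00366). *Exo1* was at 2.98, 2.72 and 3.02 CPM with MC, and with the Plus A values above it fell by 0.89 ± 0.27 (adjusted p = 0.0162). Every Plus A library lay below every MC library for both, as for 6 of the 9 genes and for 33.7% of genes tested. *Fancd2* fell by 0.69 ± 0.13 (adjusted p = 0.00106) and *Brca2* by 0.65 ± 0.13 (adjusted p = 0.00132) on the log2 scale. *Brca2* lost its call without Hypoxia Plus A replicate 2 (log2 fold change -0.54, adjusted p = 0.00548), and *Palb2*, at -0.57 ± 0.21 (adjusted p = 0.0398), gained one without Hypoxia Plus A replicate 1 (-0.76, adjusted p = 0.00942). *Brca1*, *Fanci* and *Blm* had log2 fold changes of -0.06, -0.07 and -0.10.

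With Trim A, 0 of 9 genes were called against MC in edgeR's quasi-likelihood test and 0 in DESeq2, where 28.1% of all genes tested were called in either direction, and 4 genes had an unadjusted p below 0.05. The largest differences had opposite signs. *Brca2* was at 10.7, 9.97 and 8.38 CPM with Trim A, below MC (log2 fold change -0.44 ± 0.12, adjusted p = 0.0143), and *Blm* was at 10.1, 12.7 and 12.1 CPM, above the 9.22, 8.56 and 7.55 CPM of MC (0.51 ± 0.14, adjusted p = 0.0152). *Blm* passed the threshold without Hypoxia Trim A replicate 1 (0.61, adjusted p = 0.002). In the same comparison 23 of 27 genes of G2 and mitosis rose and 8 of 39 replication genes rose.

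Trim AG was the mimic with the most calls against MC, and all were upward. *Brca1*, *Bard1*, *Fanci*, *Blm*, *Exo1* and *Xrcc2* rose, 6 of 9, where 17% of all genes tested were called higher. *Bard1* was at 11.7, 13.3 and 10.1 CPM with Trim AG, 3.00-fold the level with MC (log2 fold change 1.58 ± 0.15, adjusted p = 4.22e-05). *Xrcc2* was at 7.17, 6.88 and 6.28 CPM with MC and at the Trim AG values above, a rise of 2.42-fold (1.28 ± 0.11, adjusted p = 2.23e-05). *Brca1* was at 7.41, 6.92 and 6.80 CPM with MC and at 16.1, 17.7 and 15.2 CPM with Trim AG (1.28 ± 0.11, adjusted p = 2.15e-05). These libraries lay well apart, and for all 9 genes every Trim AG library was above every MC library, which held for 30.1% of genes tested. *Brca2* (0.48 ± 0.08), *Palb2* (0.45 ± 0.13) and *Fancd2* (0.55 ± 0.13) stayed under the fold threshold with adjusted p of 0.00129, 0.0173 and 0.00512. *Fancd2* crossed it when Hypoxia MC replicate 3, Hypoxia Trim AG replicate 1 or Hypoxia Trim AG replicate 3 was left out, with log2 fold changes of 0.61, 0.60 and 0.61.

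With Trim AGU, *Brca1*, *Bard1* and *Exo1* rose against MC, 3 of 9, where 11.4% of all genes tested were called higher. *Bard1* was at 10.1, 7.81 and 9.34 CPM (log2 fold change 1.29 ± 0.17, adjusted p = 0.00307), *Exo1* at 5.72, 6.31 and 5.58 CPM (1.16 ± 0.19, adjusted p = 0.00623) and *Brca1* at 12.8, 9.29 and 12.7 CPM (0.85 ± 0.15, adjusted p = 0.00903). The *Brca1* call was lost without Hypoxia MC replicate 2 (0.84, adjusted p = 0.0578) or replicate 3 (0.82, adjusted p = 0.0607). Hypoxia Trim AGU replicate 2, the library with the fewest genes detected, had 7.25 CPM of *Brca2* against 13.6 and 14.6 CPM, and 6.68 CPM of *Xrcc2* against 11.5 and 11.01 CPM. *Xrcc2* was at 0.65 ± 0.20 with all libraries (adjusted p = 0.0519), and without that library it rose by 0.81 (adjusted p = 0.00146), which made 4 of 9. The share of all genes called without that library was not counted. *Brca2* and *Palb2* were at -0.07 and -0.08, with intervals of -0.62 to 0.47 and -0.49 to 0.34.

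Side by side against MC, *Brca2* and *Palb2* had the lowest or next to lowest log2 fold change of the 9 under every mimic but Plus A, while *Bard1* had the highest with Trim AG and Trim AGU and next to the lowest with Plus A. Of the other homologous recombination and Fanconi genes tested, 16 rose and 3 fell under Trim AG, 12 rose and 2 fell under Trim AGU, 4 rose and 4 fell under Trim A, 1 rose and 5 fell under Plus A, and 1 rose and 4 fell under miR-125b. *Fancc*, of the Fanconi core complex, fell under every mimic but Trim AGU (-0.23, adjusted p = 0.467), by 0.75 with miR-125b to 1.08 with Plus A on the log2 scale. *Brip1* fell most with Plus A (-1.58), less with miR-125b (-0.75) and Trim A (-0.61), and was at 0.33 and 0.19 with Trim AG and Trim AGU (adjusted p = 0.189 and 0.541). *Ube2t* rose with Trim A (1.51), Trim AG (2.43) and Trim AGU (2.46). Of the replication genes, 28 of 39 rose with Trim AG and 23 of 39 with Trim AGU, and all 27 genes of G2 and mitosis rose with both. Of 5 myoblast markers tested, 2 to 4 fell against MC under each mimic. Of 5 fibroblast markers, 3 fell with Trim AG. The part of any of these lists in the changes of the 9 genes was not tested.

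The direct comparison of each isomiR with miR-125b asked what a change of 1 to 3 bases at the 3′ end did. In hypoxia all 9 genes rose with Trim AG, where 7.85% of all genes tested were called higher. The log2 fold changes were 0.82 for *Fancd2* to 1.70 for *Bard1*, with a median of 1.09 and adjusted p of 5.24e-05 to 0.0017. *Bard1* was at 3.44, 4.07 and 3.45 CPM with miR-125b and 3.25-fold higher with Trim AG. *Brca2* was at 18.6, 18.03 and 17.4 CPM with Trim AG, 2.14-fold its level with miR-125b (log2 fold change 1.09 ± 0.10, adjusted p = 0.000134). No library of either group overlapped for any of the 9 genes, which 25.9% of genes tested showed in this direction. All 9 calls were kept when any 1 library was left out. In the same comparison 28 of 39 replication genes and 27 of 27 genes of G2 and mitosis rose, and 3 of 5 fibroblast markers fell. The summed level of these 5 markers was 8015 to 17590 CPM with Trim AG and 39150 to 41200 CPM with miR-125b. The part of these lists in the rise of the 9 genes was not tested.

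Plus A, which is 1 base longer than miR-125b, had 2 of 9 genes lower than miR-125b in hypoxia, where 1.32% of all genes tested were called lower. *Exo1* fell by 1.02 ± 0.28 (adjusted p = 0.0368) and *Bard1* by 0.72 ± 0.18 (adjusted p = 0.0272) on the log2 scale. Both calls were near the threshold and were lost without any 1 of the 3 miR-125b libraries, with adjusted p of 0.0693 to 0.122 for *Exo1* and 0.0659 to 0.101 for *Bard1*. *Bard1* was also lost without Hypoxia Plus A replicate 2 (adjusted p = 0.0544) or replicate 3 (adjusted p = 0.0584). *Brip1* was lower as well (-0.84, adjusted p = 0.0229). For *Brca2* the difference was -0.03 with an interval of -0.34 to 0.28.

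Trim A, 1 base shorter, had 0 of 9 genes called against miR-125b in hypoxia with edgeR and 0 with DESeq2, where 0.873% of all genes tested were called in either direction, and 3 genes had an unadjusted p below 0.05. *Xrcc2* came closest, at 8.66, 8.68 and 9.16 CPM against 5.88, 6.49 and 6.01 CPM (log2 fold change 0.53 ± 0.11, adjusted p = 0.0552). All 9 estimates were positive, 0.11 for *Brca1* to 0.53 for *Xrcc2*. Genes of G2 and mitosis differed here, with 15 of 27 higher with Trim A.

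Trim AGU had 3 of 9 genes higher than miR-125b in hypoxia, *Bard1* (1.40 ± 0.16, adjusted p = 0.00989), *Exo1* (1.02 ± 0.21, adjusted p = 0.0465) and *Brca1* (0.71 ± 0.15, adjusted p = 0.0496), where 1.83% of all genes tested were called higher. This count moved with single libraries. Without Hypoxia Trim AGU replicate 2 it was 6, with *Brca2* (0.76, adjusted p = 0.00717), *Fancd2* (0.62, adjusted p = 0.0269) and *Xrcc2* (0.91, adjusted p = 0.00292) added, and without Hypoxia Trim AGU replicate 3 or any 1 miR-125b library it was 0. The share of all genes called was not counted in these fits, so the 1.83% is not their background. Trim AG and Trim AGU, which differ by 1 base, were not compared directly.

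**Figure D3:**
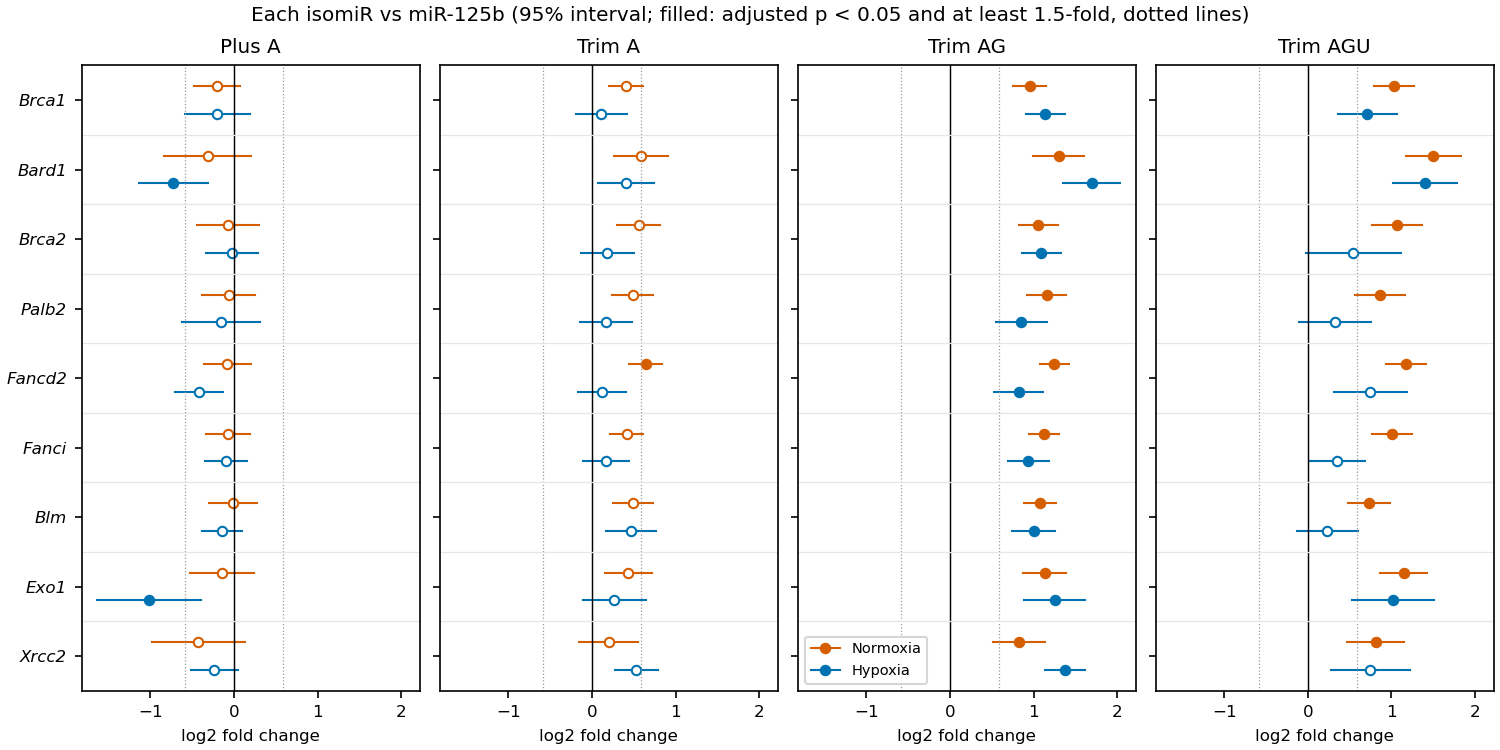
Log2 fold change of each gene for each isomiR vs. miR-125b with its 95% interval, in normoxia (orange) and hypoxia (blue); filled points passed an adjusted p of 0.05 and a 1.5-fold change (dotted lines). With Trim AG all 18 points are filled and to the right, with Trim AGU all 9 normoxia and 3 hypoxia points are filled, and with Plus A and Trim A most points are open.

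In normoxia, all 9 genes rose against miR-125b with Trim AG and all 9 with Trim AGU, where 7.58% and 6.22% of all genes tested were called higher. *Bard1* was at 33.6, 32.97 and 34.4 CPM with Trim AG and at 38.1, 37.8 and 37.0 CPM with Trim AGU, against 9.93, 15 and 14.8 CPM with miR-125b. The first of the miR-125b values is from the library that went against its label in *Cav1*. *Bard1* rose 2.46-fold with Trim AG (log2 fold change 1.30 ± 0.14, adjusted p = 0.000108) and 2.83-fold with Trim AGU (1.499 ± 0.15, adjusted p = 0.000247). The smallest rises were in *Xrcc2* with Trim AG (0.83 ± 0.14) and *Blm* with Trim AGU (0.73 ± 0.11). All 9 calls in each comparison were kept without Normoxia miR-125b replicate 1 and without any other single library. Of the 50 other homologous recombination and Fanconi genes, 20 rose with Trim AG and 20 with Trim AGU and 0 fell. *Brip1* rose by 1.51 on the log2 scale with each. Of the replication genes, 33 of 39 rose with Trim AG and 34 of 39 with Trim AGU, and all 27 genes of G2 and mitosis rose with each, and their part in the rise of the 9 genes was not tested.

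With Trim A in normoxia only *Fancd2* was called against miR-125b, at 36.9, 39.6 and 36.4 CPM against 21.5, 26.9 and 24.5 CPM (log2 fold change 0.64 ± 0.09, adjusted p = 0.0126), where 0.367% of all genes tested were called higher. All 9 estimates were positive and 8 genes had libraries above all those of miR-125b, which 12.6% of genes tested had. The *Fancd2* call was lost without Normoxia miR-125b replicate 1 (0.56, adjusted p = 0.00634), Normoxia Trim A replicate 1 (0.65, adjusted p = 0.0512) or Normoxia Trim A replicate 2 (0.60, adjusted p = 0.062). Without Normoxia miR-125b replicate 3, *Brca2* was called in addition (0.69, adjusted p = 0.0263).

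With Plus A in normoxia, 0 of 9 genes were called against miR-125b with edgeR and 0 with DESeq2, and 0 had an unadjusted p below 0.05, where 0% of all genes tested were called. The libraries of the groups overlapped for all 9 genes, as for most genes tested. Only 3.94% lay apart with Plus A higher and 4.04% with Plus A lower. Without replicate 1 of both groups, every Plus A library lay below every miR-125b library for all 9 genes. The share of all genes that did so was not counted. Left without replicate 1 of both groups, *Bard1* (-0.75, adjusted p = 0.00963) and *Xrcc2* (-0.88, adjusted p = 0.0124) were lower with Plus A, from levels of 9.26 and 8.17 CPM of *Bard1* with Plus A against 15 and 14.8 CPM with miR-125b. The share of all genes called without these libraries was not counted, so the 0% is not its background.

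Whether hypoxia acted differently with an isomiR than with miR-125b was tested as an interaction. In edgeR 0 of 9 genes were called for any isomiR. Of all genes tested, 11.3% were called in either direction for Trim AG, 0.966% for Trim AGU, 0.605% for Trim A and 0.0193% for Plus A, and 2, 3, 1 and 1 of the 9 had an unadjusted p below 0.05. DESeq2 called *Fanci* for Trim AGU and none of the 9 for the other isomiRs. For Trim AG a difference of 1.5-fold lay outside the intervals of *Brca1* (-0.11 to 0.46), *Brca2* (-0.29 to 0.34), *Fanci* (-0.50 to 0.10), *Blm* (-0.39 to 0.21) and *Exo1* (-0.30 to 0.52). *Fancd2* and *Xrcc2* had adjusted p of 0.0466 and 0.0471 with differences under 1.5-fold. Without Normoxia miR-125b replicate 1 *Xrcc2* was called (0.70, adjusted p = 0.00361). For Trim AGU, *Fanci* had an interaction of -0.62 ± 0.17 (adjusted p = 0.1), and it was called without Hypoxia Trim AGU replicate 1 (-0.60, adjusted p = 0.0415) or replicate 2 (-0.67, adjusted p = 0.0342).

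For Normoxia MC the authors' group means allowed a description with no test. All 9 genes had a higher mean with MC than with Plus A in normoxia, by 1.23-fold for *Blm* to 2.19-fold for *Bard1*, with *Brca2* at 1.95-fold. The authors' mean of *Bard1* was 690 with MC and 314 with Plus A, and that of *Blm* 633 and 517. The median ratio of Plus A to MC over 14416 genes was 1.01, and 49.1% of them were lower with Plus A. The Plus A mean includes the library that went against its label in *Cav1*.

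The 9 genes varied together from library to library. Over the 15 normoxia libraries the 36 pairs had Pearson correlations of log2(CPM + 0.5) of 0.892 to 0.991 (median 0.961), and over the 18 hypoxia libraries of 0.562 to 0.929 (median 0.768). Libraries of a group share their mimic, so these are descriptions of how the groups line up. *Brca2* followed the mean of the 9 least in hypoxia (r = 0.808 over 18 libraries) and *Bard1* most (r = 0.967), where the mean includes the gene itself. Among 12314 named genes, and leaving out the 9 themselves, those most like the mean of the 9, by the smaller of the correlations in hypoxia and in normoxia, were *Stil* (0.970), *Mtbp* (0.966), *Wdhd1* (0.964), *Casc5* (0.959) and *Incenp* (0.956), with *Hmgb2* at the same value as *Incenp*. *Stil* encodes a protein of centriole duplication, *Wdhd1* a replication factor, and *Casc5* and *Incenp* proteins of the kinetochore and the chromosomal passenger complex.

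**Figure D4:**
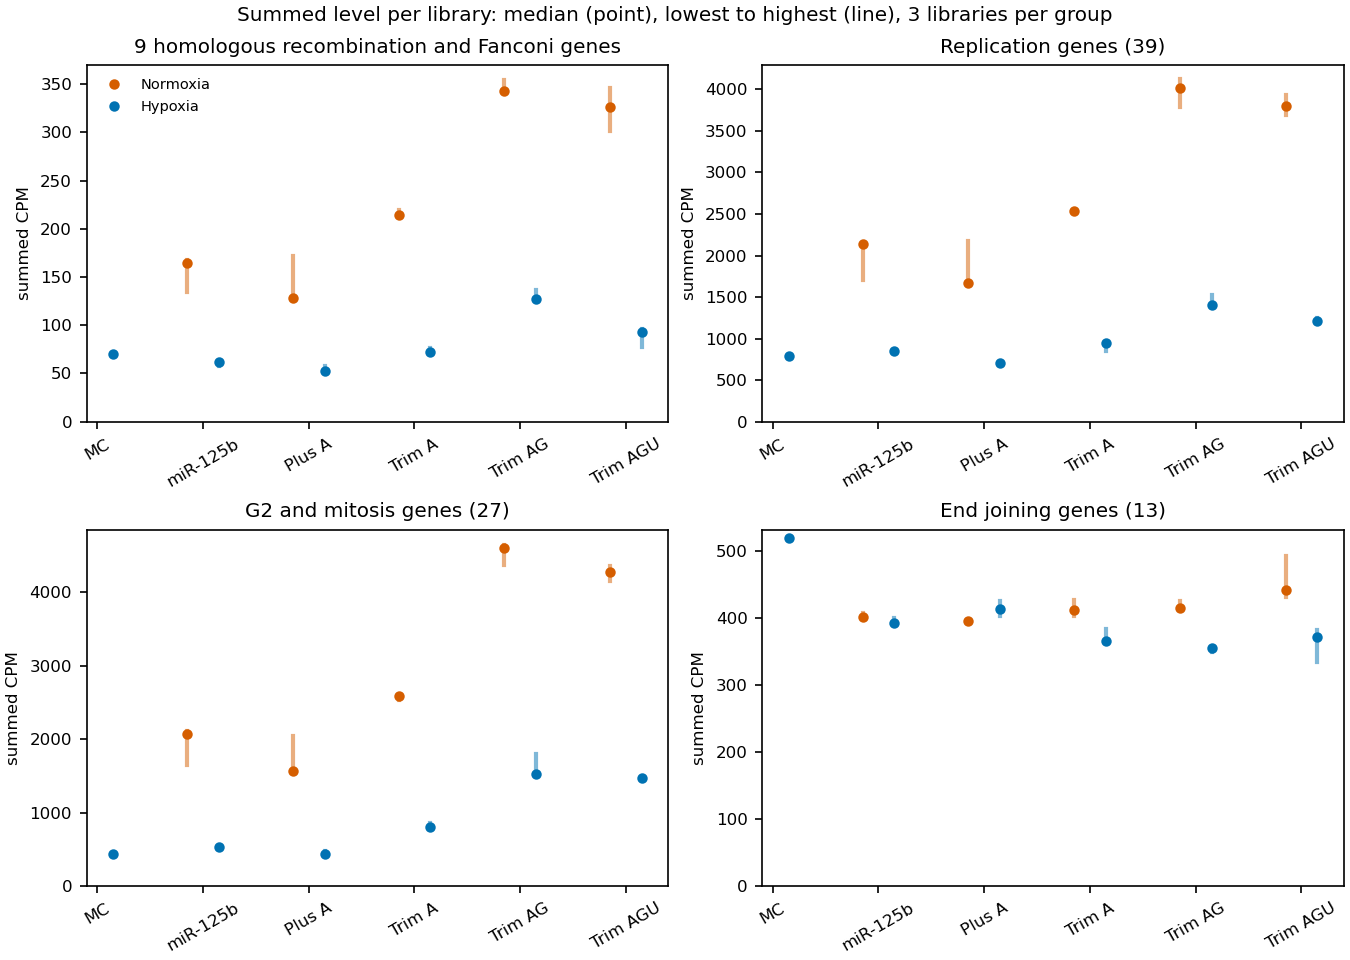
Summed CPM per library of the 9 genes, of 39 replication genes, of 27 genes of G2 and mitosis and of 13 end joining genes by mimic; points are medians and lines run from the lowest to the highest of 3 libraries, normoxia in orange and hypoxia in blue. In the first 3 panels each mimic has its hypoxia libraries below its normoxia libraries and the highest hypoxia medians are with Trim AG. The end joining genes lie between 335 and 522 CPM. Their hypoxia libraries lie below the normoxia libraries with miR-125b, Trim A, Trim AG and Trim AGU, and above them with Plus A.

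Since these genes moved together, their promoters were read for shared letters, with motifs chosen after the sequences were seen. RefSeq promoters in GRCr8, from 250 bases before to 50 after the start of a gene, were at hand for *Fanci*, *Palb2*, *Fancd2*, *Bard1*, *Brca1*, *Brca2* and *Exo1*, and not for *Blm* and *Xrcc2*. The letters GCGGGAA, a form of the motif read by E2F factors of the cell cycle, were looked for on both strands, where the reverse is TTCCCGC. They were in 4 of these 7 promoters and in 4.21% of 33469 promoters of the same length. The windows below show the match in capitals, in the direction of the gene.
*Brca1*: cgacgaagagcGCGGGAAtttcagataga
*Bard1*: tgccgctctgtTTCCCGCtcaggaagttt
*Fancd2*: gcgtccgacaaGCGGGAAagtcgaaaacg
*Fanci*: cgtggagttgaGCGGGAAttttggaagga
They lie at chr10:86977579-86977607 (minus strand), chr9:80143942-80143970 (minus), chr4:148234706-148234734 (plus) and chr1:142736671-142736699 (plus), and the first capital is at position -15, -204, 10 and 30 from the start. *Palb2*, *Brca2* and *Exo1* do not hold these letters in this window. The letters TTTGAA, the core of the CHR motif of G2 and mitosis genes, on either strand, were in *Bard1* and *Fanci*, 2 of 7, and in 18.3% of all promoters, and in *Bard1* the nearer of its 2 matches follows the one shown above by a few bases. The letters GCGCGAA, another E2F form, were in 0 of 7 and in 1.51% of all. A match is a description of letters, and no binding was measured.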

How the data were processed

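Poly-A RNA of transfected H9C2 cells was sequenced in non-stranded libraries. The authors deposited 12 tables, each comparing a pair of groups, and 11 hold raw counts per gene and library, with FPKM values that the authors scaled by gene length and library total. The deposited table of Normoxia Plus A and Normoxia MC holds group means, an expression signal given by the authors, with no library of its own. The tables also hold the authors' fold changes and p-values, which were not used. The submitters' processing notes name HISAT2 and StringTie, whose versions and role are not given in the sources used here, nor is the genome build. Since the libraries were not stranded, reads of overlapping or antisense genes cannot be told apart.

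Counts were joined on the gene identifier, with 0 for a gene that a table leaves out, and counts of 33 libraries conflicted for 0 genes. CPM used the total counts, 28361216 to 42672584 per library. Each of 18 pairs of groups and 4 interactions was fitted on its own libraries with edgeR 4.0.16 in R 4.3.3 (filterByExpr, TMM, quasi-likelihood test), with Benjamini-Hochberg adjustment over all genes tested, and all 9 genes passed the filter in each. Intervals cover 95% and errors of fold changes are standard errors. Alternatives were DESeq2 1.42.0, library size only, no filter, all libraries in 1 fit, a replicate block, no fold threshold and each library left out. Replicate libraries differed by more than counting noise (chi-square per gene 4.97 to 236). The highest value was between replicates 1 and 2 of Hypoxia Trim AGU, and replicates 1 and 2 of Hypoxia Trim AG were at 103. Hypoxia Trim A replicate 1 was at 79.7 and 61.7 from replicates 2 and 3, which were at 8.16 from each other. The fits were tested on simulated data. Of other list genes, *Brip1* and called genes with the largest changes and a mean of at least 1 CPM were named, and some are not reported here. The genes and lists were chosen with earlier results of these data known. The join ran in pandas 2.3.3 and numpy 2.4.6 under Python 3.11.15, with plots by matplotlib 3.10.9.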

Additional observations from a re-analysis of the deposited data

Results flagged for a closer look

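In the test of whether hypoxia acted differently with Trim AG than with miR-125b, the difference of the changes passed an adjusted p of 0.05 for *Fancd2* and *Xrcc2*, both under 1.5-fold and in opposite directions. *Fancd2* had an interaction of -0.44 ± 0.15 on the log2 scale (adjusted p = 0.0466), with a log2 fold change in hypoxia of -2.15 with Trim AG and -1.74 with miR-125b. *Xrcc2* had an interaction of 0.54 ± 0.18 (adjusted p = 0.0471), with -0.47 with Trim AG and -1.04 with miR-125b. Leaving out 1 library gave adjusted p of 0.0124 to 0.128 for *Fancd2* and 0.00361 to 0.109 for *Xrcc2*, and the lowest for *Xrcc2* was without Normoxia miR-125b replicate 1, which went against its label in *Cav1*. Single outlying libraries were not tested for, since every group had 3 libraries.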

How the results depend on the processing

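The counts of 9 lower in hypoxia with miR-125b, Trim A and Trim AGU, of 8 with Trim AG, and of 9 higher with Trim AG in both conditions and with Trim AGU in normoxia against miR-125b did not move by over 1.5 times under any alternative run. Of 2682 values of single genes under an alternative, 0 reversed a call, 38 lost one and 42 gained one. For the alternatives the share of all genes called was not counted. With no fold threshold the count was 2 for miR-125b and 3 for Trim A against MC, 3 for Trim A against miR-125b in normoxia and 2 for the interaction with Trim AG. For Trim AGU against miR-125b in hypoxia (3 called) it was 5 with DESeq2, 5 in a fit of all libraries, 1 with library size only and 1 with no filter. For Trim A against miR-125b in normoxia (1 called) it was 2 with DESeq2, 2 with no filter and 0 without both normoxia libraries numbered 1 of Plus A and miR-125b. Without those libraries it was 2 for Plus A against miR-125b in normoxia and 1 for the interaction with Trim AG. The interaction with Trim AGU had 1 in DESeq2 and 1 in the fit of all libraries. The cause of these moves was not tested. Leaving out 1 library gave 0 to 1 for miR-125b against MC, 2 to 4 for Trim AGU, 6 to 7 for Trim AG, 0 to 1 for Trim A and 3 to 5 for Plus A, and 8 to 9 for the oxygen comparison of Plus A. Against miR-125b it gave 0 to 2 for Plus A and 0 to 6 for Trim AGU in hypoxia, 0 to 2 for Trim A in normoxia, and 0 to 1 for the interactions with Trim AG and Trim AGU.

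The replicate numbers did not pair the libraries: libraries of the same number had correlations of deviations of -0.161 to 0.0756 in 54 pairs, and in 0 of 18 comparisons were all over 0.1. With the replicate number as a block, the count was 0 for Trim AGU and 1 for Plus A against miR-125b in hypoxia, 5 for Plus A against MC, and as before in the other comparisons. Library size in place of TMM moved the median log2 fold change of all genes by 0.109 in the oxygen comparison of Plus A, by -0.139 for Trim AGU against MC and by -0.133 for the interaction with Trim AGU. The share of calls that were higher went from 44.8% to 55.4% and from 43.9% to 56.5% in the oxygen comparisons of miR-125b and Plus A, from 48% to 33.8% for Trim AGU against MC and from 63.3% to 52.9% for the interaction with Trim AGU.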

Other observations

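Genes that regulate the cell cycle program and its checkpoints, described here for these comparisons only, also changed. Of 19 genes of the E2F and RB network, 8 to 10 fell in hypoxia under each mimic and 1 or 2 rose. *E2f7* and *E2f8*, both of repressors within the E2F family, fell most, *E2f7* by 2.58 on the log2 scale with Trim AG to 3.63 with Trim A, and *Cdkn1a*, which encodes the CDK inhibitor p21, rose by 0.93 with miR-125b to 1.55 with Trim AGU. Against MC in hypoxia, *E2f8* fell most with Plus A (-1.78), then with miR-125b (-1.24) and Trim A (-1.02), and *Foxm1*, a factor of mitotic genes, rose under every mimic but Plus A (0.29, adjusted p = 0.0471), by 0.59 with miR-125b to 1.5 with Trim AG.

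Of 11 checkpoint genes, 4 or 5 fell in hypoxia under each mimic, led by *Clspn*, the adaptor of CHK1 activation, which fell by 2.27 with Trim AG to 3.5 with Plus A. Against MC, *Rad9a*, a subunit of the checkpoint clamp, rose under every mimic, by 1.07 with miR-125b to 1.21 with Trim AG, and *Chek2*, a checkpoint kinase, fell with Plus A (-0.70). Of the end joining genes against MC, *Polm*, a polymerase that fills gaps at breaks, fell under every mimic, by 1.30 with miR-125b to 2.07 with Trim AG, and *Prkdc*, the DNA-dependent kinase, fell by 0.71 with miR-125b to 1.30 with Trim AG. The summed level of the 13 end joining genes was 515 to 522 CPM with MC and 335 to 425 CPM with the other mimics in hypoxia.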
